A study of Saccharomyces cerevisiae with 8 samples.

Results

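The introns of yeast mitochondrial genes carry reading frames of their own, and 9 of them were followed here: AI1 (Q0050), AI2 (Q0055), AI3 (Q0060), AI4 (Q0065) and AI5_ALPHA (Q0070) of COX1 (cytochrome oxidase subunit 1), BI2 (Q0110), BI3 (Q0115) and BI4 (Q0120) of COB (cytochrome b), and SCEI (Q0160) of the 21S ribosomal RNA gene. They were taken by systematic name and are 9 of the 5933 genes in the deposited tables, which hold 19 features of the mitochondrial genome. Direct RNA sequencing on the Helicos platform had captured RNA by its poly(A) and read each molecule at its 3′ end, so that a count is a count of 3′ ends. The 8 libraries came from W303 yeast whose chromosomal PCF11 gene, which encodes a subunit of the cleavage factor that cuts nuclear pre-mRNA before polyadenylation, was replaced by TRP1. All strains lived on a LEU2 plasmid with PCF11 or a mutant allele. All strains also carried ade2-1, his3-11,15, trp1-delta and ura3-1, and a leu2 allele whose number the labels write differently for pcf11-dNL.

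Caffeine cultures received 20 mM caffeine for 2 h at 30 °C, and the others were harvested untreated from the same rich medium, so that culture time differed along with caffeine. There was 1 library each of pcf11-13 (untagged pcf11-13 allele, MATa) with and without caffeine in experiment 1, and 1 each of pcf11-dNL (V5- and MYC-tagged deltaN-link allele, MATalpha) with and without caffeine in experiment 2. Wild type (V5- and MYC-tagged PCF11, MATalpha) had 2 caffeine and 2 untreated libraries, 1 of each per experiment. The mating type and the tags differ between pcf11-13 and wild type as well as the allele, and these cannot be told apart.

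Self-splicing introns of group I and group II make up much of the yeast mitochondrial genome. Group I introns often encode homing endonucleases, which copy the intron into intronless alleles, or maturases, which help the RNA of their own intron to fold and splice out. Group II frames encode a reverse transcriptase with maturase activity. Most of these frames continue an upstream exon without a break, so that the protein is made from unspliced precursor and the frame is lost once the intron is removed. Mature mitochondrial mRNAs of yeast end just past a conserved dodecamer and have no long stable poly(A) tail.

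On the RefSeq annotation of R64, with 1-based positions on the plus strand of chromosome M, all 5 COX1 frames start at 13818, the start of COX1, and run through the upstream exons into their intron. AI1 ends at 16322 and AI2 at 18830, in the introns of group II. AI3 ends at 19996, AI4 at 21935 and AI5_ALPHA at 23167, in introns of group I that encode homing endonucleases. COX1 itself spans 13818 to 26701 with 8 exons. BI2, BI3 and BI4, which encode maturases, start with COB at 36540 and end at 38579, 40265 and 42251, and COB has 6 exons and ends at 43647. SCEI, at 61022 to 61729, encodes the endonuclease I-SceI. It lies wholly inside the 21S intron of 60725 to 61867, and the 21S gene itself has no row in the table. How the authors shared reads among overlapping features is not given in the sources used here, so the counts of the nested frames and of COX1 and COB are uncertain in their split.

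**Figure D1:**
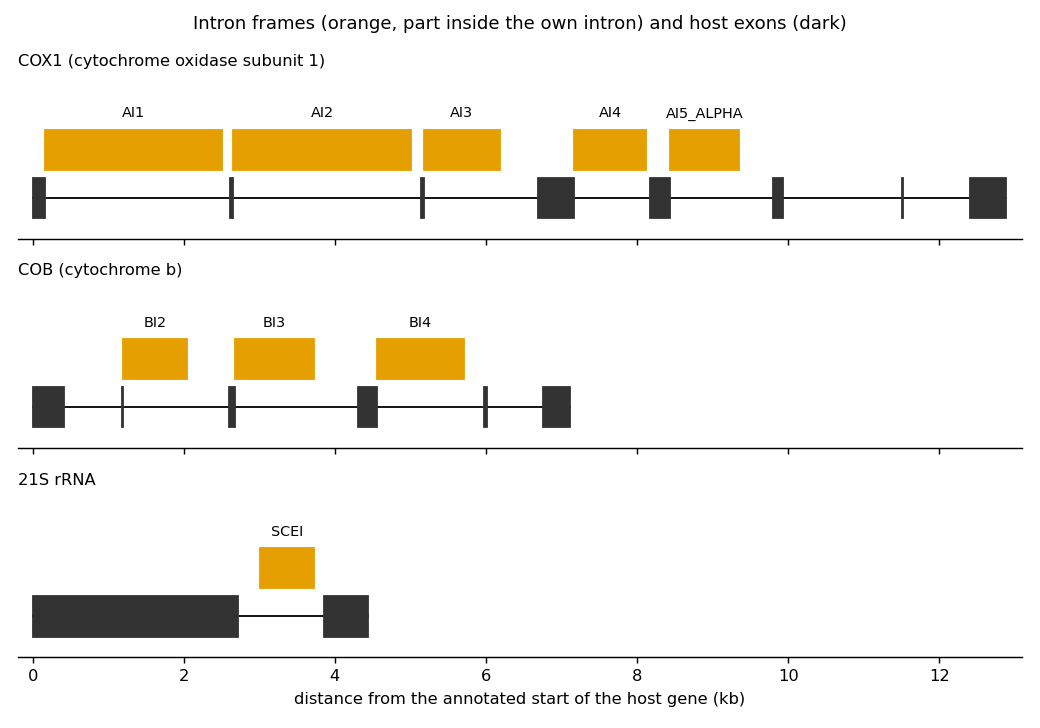
Map of COX1, COB and the 21S rRNA gene, drawn to scale against the distance from each gene's annotated start (kb). Dark boxes are exons and orange boxes the stretch of each frame that lies in its own intron. The 5 COX1 frames and 3 COB frames sit in successive introns, and SCEI starts inside its intron with no upstream exon.

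The dodecamer was searched for because it marks where mitochondrial mRNAs end. Among the words of 12 bases, 1 occurred within 800 bases past the stop of 6 of the 8 mitochondrial protein genes searched, and the next most shared word occurred past 5. It has the letters of that dodecamer, and 8.36% of all windows of 800 bases on the plus strand hold it. It was found 9 times on the plus strand of the 85779 bases and 2 times on the minus strand. Here it is shown in capitals at the stop of SCEI and past the ends of COX1, COB and AI5_BETA, another intron frame of COX1, in windows of 30 bases, of which 0.199% hold it.
SCEI, chrM:61716-61745: cttttttaaAATAATATTCTTatttttatt
COX1, chrM:26761-26790: taatataatAATAATATTCTTataaaaata
COB, chrM:43736-43765: taatactttAATAATATTCTTaaaaataat
AI5_BETA, chrM:25286-25315: tgttaattaAATAATATTCTTtttttttta

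In SCEI the word starts in the frame and reaches past the stop. It lies 69 bases past COX1, 98 past COB and 40 past AI5_BETA. The other 8 frames had none in their intronic stretch or between their stop and the end of their intron, and their next copy downstream was 1494 to 8973 bases away.

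Stretches rich in A matter for a method that captures RNA by its A-rich end. The intronic stretches were 38.8% (AI2) to 45.1% (AI4) A, near the 42.2% of the whole mitochondrial genome. The intronic stretches had 14.9% to 26.4% G and C and longest runs of 6 to 8 A. The window of 30 bases with the most A in each stretch held 19 to 23. On the plus strand, 4.94% of all windows of that length hold 19 or more and 0.150% hold 23 or more. These shares are for single windows, while each frame's window was picked as the highest of its stretch. They thus do not show whether the frames are unusual. The windows of AI1, BI2, BI3 and SCEI are shown with their longest A run in capitals. That of AI1 lies just before its stop.
AI1, chrM:16278-16307: aaaacacatAAAAAtaaatttaaaaatata
BI2, chrM:37827-37856: ataataagacaaataatAAAAActaaagaa
BI3, chrM:39651-39680: aaagtaacaattAAAAAAttaaaaataaaa
SCEI, chrM:61024-61053: gaaaaatattAAAAAAAAtcaagtaataaa
These are letters of the S288C reference, not of the W303 strains, and whether reads end there was not tested, since the tables hold no read positions.

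The libraries held 4555751, 4413677, 4410374 and 2088078 counts with caffeine (pcf11-dNL, wild type of experiments 1 and 2, pcf11-13) and 1071339, 1070278, 1631254 and 2393801 without. Caffeine libraries were thus deeper than their partners in 3 of 4 pairs, but not in pcf11-13. PCF11 was read in all libraries, at 110 to 222 CPM (counts scaled to library size) with caffeine and 109 to 205 CPM untreated. URA3 took 3.67% of the counts in caffeine-treated and 1.78% in untreated wild type of experiment 1, against 0.00747% to 0.0275% in the other 6 libraries. These 2 libraries stand apart. A single frame had between 11.1 and 236 counts per library, so counting error alone is large, and a level cannot tell fewer cells from less RNA per cell.

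Together the 9 frames took 205, 247, 255 and 261 CPM with caffeine (pcf11-13, pcf11-dNL, wild type of experiments 1 and 2), against 214, 324, 263 and 265 CPM untreated. The untreated pcf11-dNL library stood highest and the pcf11-13 libraries lowest. As a share of all mitochondrial counts the frames made up 29.4%, 34.9%, 34.0% and 34.8% with caffeine and 31.5%, 21.6%, 25.4% and 25.3% untreated. The widest 95% Wilson interval, of untreated wild type in experiment 1, ran from 22.9% to 28.2%, and such intervals cover counting error only. The share was higher with caffeine in the wild-type and pcf11-dNL pairs and lower in pcf11-13. The total includes COX1, whose own difference is described further on. With COX1 left out of the total, the share was 32.8%, 39.9%, 38.0% and 39.7% with caffeine and 35.9%, 36.9%, 37.7% and 37.5% untreated.

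Levels were compared between frames per kilobase of intronic stretch. BI2 was highest with 56.7 ± 11.9 CPM per kb (SD over the 8 libraries), followed by SCEI with 40.9 ± 7.66, BI3 with 37.3 ± 6.80 and BI4 with 26.9 ± 7.38 CPM per kb. The COX1 frames were lower per kb: AI4 had 23.1 ± 6.56, AI5_ALPHA 20.1 ± 4.03, AI1 17.2 ± 2.79, AI3 12.0 ± 3.78 and AI2 6.15 ± 2.02 CPM per kb. Each neighbour in this order overlapped the next in its range over libraries, as for AI3 (8.96 to 19.5 CPM per kb) and AI2 (4.14 to 9.49). The ends of the order did not overlap, since BI2 had at least 43.2 CPM per kb in every library. These levels count all reads assigned to a frame, also those past its stop. For SCEI, 19.2 of its 28.9 CPM on average lay past the stop, at a mean distance beyond the end of its intron. Its value per kb is thus not the level of the intronic stretch alone. Each molecule is read once at its end, so a longer stretch does not by itself give more reads. Without the length the order differs: BI2 averaged 47.8 CPM, AI1 40.1, BI3 39.1, BI4 31.2 and SCEI 28.9 CPM. The other COX1 frames averaged 12.1 (AI3) to 21.9 CPM (AI4). The lower place of AI1 thus depends on the division by length.

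The first question was whether caffeine, which inhibits the TORC1 kinase and stresses the cell wall, changed the frames. None of the 9 passed the threshold of adjusted p 0.05 in edgeR's quasi-likelihood test, either in wild type or over all strains. Over all genes, 31.6% were called in wild type and 37.9% over all strains. The median log2 change of the frames was -0.11 in wild type, with 4 above 0 and 5 below, against 0.02 for all genes tested. Over all strains it was -0.19 with 3 above 0 and 6 below, against -0.0035 for all genes.

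**Figure D2:**
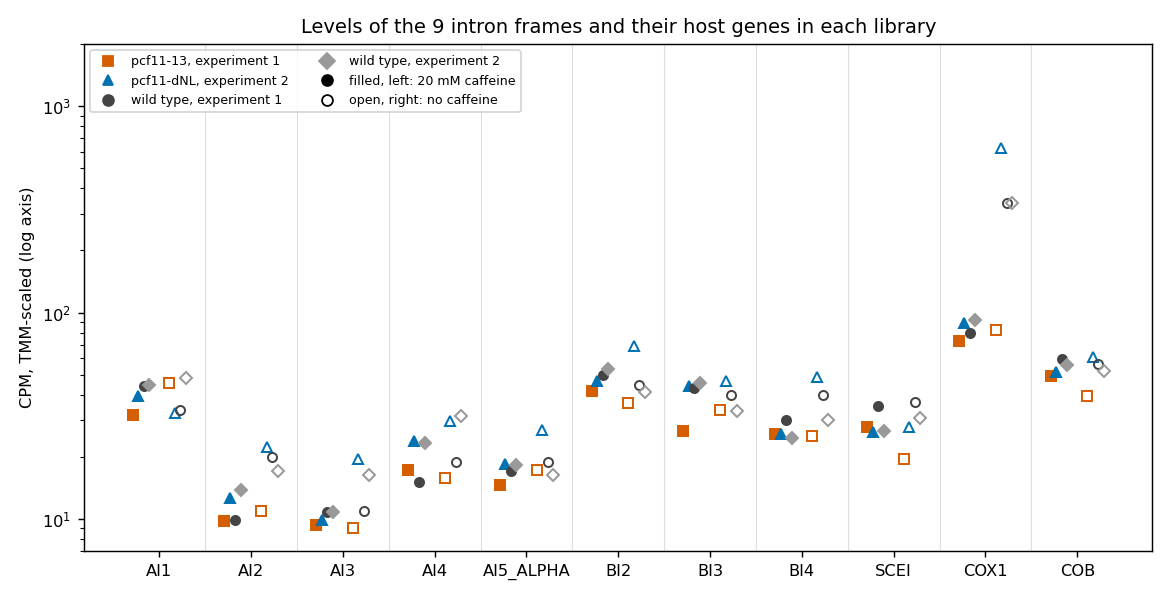
CPM (TMM-scaled, log axis) of each frame and of COX1 and COB in every library, with 20 mM caffeine left (filled) and no caffeine right (open), and strains by colour and shape. For each frame the caffeine and untreated libraries overlap, while COX1 sits between 72.5 and 92.4 CPM with caffeine and at 624, 338 and 340 CPM in 3 of 4 untreated libraries.

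AI2, the reverse transcriptase and maturase frame of the second COX1 intron, had the lowest p. It had 9.78 CPM in pcf11-13, 12.6 in pcf11-dNL and 9.85 and 13.7 in wild type with caffeine, against 10.9, 22.4, 19.8 and 17.0 CPM untreated. It was lower with caffeine in all 4 pairs, although the untreated pcf11-13 library lies within the caffeine range. Its log2 change over all strains was -0.57 ± 0.23 (SE), with p 0.034 and adjusted p 0.0768 in edgeR. Without either pcf11-13 library it was -0.69. The other pcf11-13 library then has its own term in the fit, so each refit leaves the whole strain out of the caffeine effect.

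AI3 and AI4, endonuclease frames of group I introns, had log2 changes over all strains of -0.43 ± 0.25 and -0.26 ± 0.24. AI5_ALPHA, another endonuclease frame, had -0.19 ± 0.20. AI1, whose group II intron lies first, had -0.02 ± 0.20. AI1 had 32.0, 39.5, 43.9 and 44.6 CPM with caffeine against 45.8, 32.7, 33.7 and 48.3 CPM untreated, in the same order of strains, and was higher with caffeine in 2 of 4 pairs.

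Among the COB frames, BI2 and BI3, each needed for the splicing of its own intron, had log2 changes of 0.04 ± 0.19 and 0.04 ± 0.18. BI4, the maturase of its own intron and of the AI4 intron, had -0.39 ± 0.21 with adjusted p 0.177. BI2 had 41.8, 46.5, 49.98 and 53.2 CPM with caffeine and 36.4, 69.1, 44.7 and 41.2 CPM untreated. SCEI had 28.0, 26.5, 35.3 and 26.8 CPM with caffeine and 19.5, 28.0, 36.7 and 30.7 CPM untreated, with a log2 change of 0.06 ± 0.20. No frame had caffeine libraries all above or all below the untreated ones, while 15.8% of all genes tested lay wholly higher with caffeine and 15.3% wholly lower.

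With caffeine the host gene COX1 fell by 1.98 ± 0.24 on the log2 scale in wild type (adjusted p 0.00172, edgeR). Over all strains it fell by 1.77 ± 0.37 (adjusted p 0.00685, edgeR). COX1 had 72.5 CPM in pcf11-13, 89.2 in pcf11-dNL and 79.8 and 92.4 in wild type with caffeine, against 82.2, 624, 338 and 340 CPM untreated. Untreated pcf11-13 was thus at the caffeine level. COB was not called: its log2 change over all strains was 0.07 ± 0.16 and it ranged from 49.3 to 59.8 CPM with caffeine and 39.4 to 60.7 CPM untreated.

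The COX1 difference lay in reads that the authors class as truncated, which end before the stop. These came to 57.0 to 65.01 CPM with caffeine and 67.1 to 594 CPM untreated. Reads past the COX1 stop were at 15.5 to 28.1 CPM with caffeine and 15.1 to 29.8 CPM untreated. The 3 untreated libraries with high COX1 are also the 3 with the fewest counts, and the part of depth in this was not tested.

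The frames were also set against their host, as the ratio of summed frame counts to host counts, which does not depend on the scaling of the libraries. The 5 COX1 frames over COX1 gave 1.15 in pcf11-13, 1.17 in pcf11-dNL and 1.22 and 1.20 in wild type with caffeine, against 1.20, 0.213, 0.303 and 0.380 untreated. The mean log2 ratio was 1.51 higher with caffeine, a 2.86-fold difference. By pair the difference was 2.00 and 1.66 in wild type and 2.46 in pcf11-dNL, but -0.07 in pcf11-13. An exact two-sided permutation of the media within genotype gave p 0.167, where its 24 arrangements allow no p below 0.0833. Over all other mitochondrial features, COX1 among them, the difference of these frames was 0.42, and with COX1 left out of that sum it was -0.064 (p 0.667 in the same exact test, chosen after seeing the data). The higher ratio over COX1 thus went with lower COX1 counts.

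For COB the ratio was higher and even across libraries. The 3 COB frames over COB gave 1.92 in pcf11-13, 2.25 in pcf11-dNL and 2.06 and 2.22 in wild type with caffeine, against 2.42, 2.72, 2.18 and 2.00 untreated. More reads were thus assigned to these 3 intron frames than to COB in all 8 libraries. The mean log2 difference was -0.14, with p 0.417 in the same exact permutation test, and it was 0.57 when the frames were set over all other mitochondrial features and 0.089 when COX1 was left out of these.

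**Figure D3:**
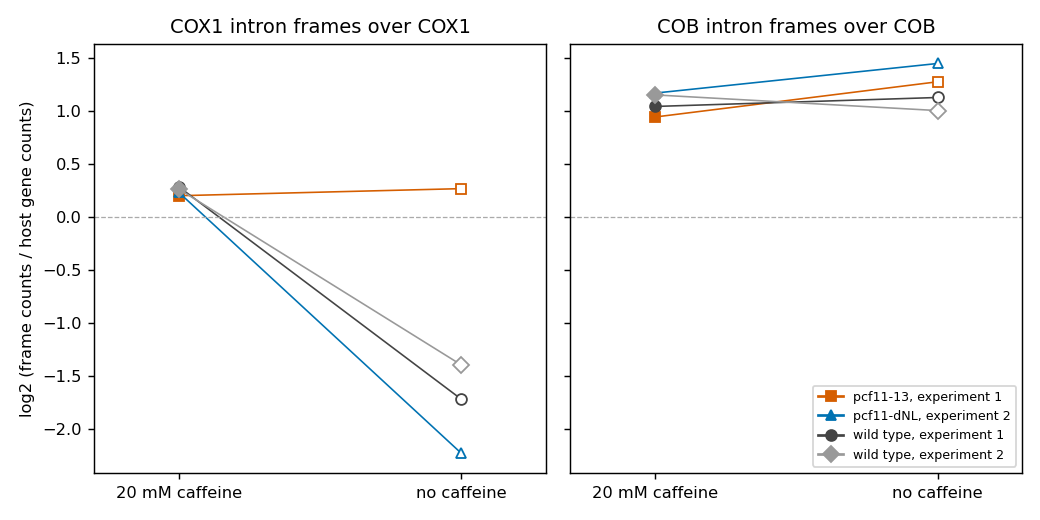
log2 ratio of summed frame counts to host counts in each library, with 20 mM caffeine left and no caffeine right, and a line joining the libraries of a strain and experiment. The COX1 ratio is alike in the 4 caffeine libraries and untreated pcf11-13 (plain ratios of 1.15 to 1.22) and lower in the other 3 untreated libraries, while the plain COB ratio stays between 1.92 and 2.72.

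The pcf11 mutants were compared with wild type next. None of the 9 frames was called in pcf11-13 against wild type, where 3.09% of all genes were, or in pcf11-dNL against wild type, where 0% were. At an unadjusted p under 0.05, edgeR gave 0 of the 9 frames in each, and 1231 and 163 of all genes. All 9 frames had a log2 difference below 0 in pcf11-13, from -0.52 for AI2 to -0.15 for AI1 with a median of -0.41, against -0.01 for all genes tested. The lowest adjusted p among them was 0.316, for BI3 at -0.42 ± 0.22. Counts of nested frames may share reads, so the shared sign is not that of 9 separate measurements.

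In pcf11-dNL 7 of the 9 frames lay above 0, with a median of 0.18 against -0.02 for all genes, and AI1 (-0.23 ± 0.24) and SCEI (-0.25 ± 0.25) lay below. The caffeine response of the frames was not called different from wild type in pcf11-13 or in pcf11-dNL, where 0% and 0% of all genes were called. The median difference of the response was 0.37 in pcf11-13 and -0.38 in pcf11-dNL. At an unadjusted p under 0.05, 0 of the 9 frames and 826 and 128 of all genes passed in these tests. For COX1 that difference was 1.80 ± 0.41 in pcf11-13 (p 0.00226, adjusted p 0.249, edgeR).

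Where the 3′ ends lie was then taken from the authors' other tables. Most reads of 8 frames were truncated, that is they ended before the stop of the frame. Pooled over all libraries in the authors' deposited table, 2.67% of AI1 reads lay past its stop, against 21.3% to 29.9% in the 7 frames from AI2 to BI4. SCEI had 67.9% past its stop. In all 8 libraries these lay at a mean distance beyond the end of its intron, and the 21S gene there has no row of its own. Of the other 3 features shown above with the dodecamer, the authors' deposited table gives 16.4% for COX1, 44.0% for COB and 46.6% for AI5_BETA. The same deposited table of the authors gives 65.4% for Q0255, 78.5% to 89.2% for ATP8, ATP6, OLI1 and COX3, 56.0% for COX2 and 29.0% for VAR1. ATP8, ATP6, OLI1, COX3, COX2 and VAR1 are protein genes with no introns.

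Over the libraries the truncated fraction of AI1 ran from 0.952 to 0.984 with caffeine and from 0.957 to 1.000 untreated. That of SCEI was 0.371 in pcf11-13, 0.226 in pcf11-dNL and 0.423 and 0.247 in wild type with caffeine, against 0.345, 0.303, 0.431 and 0.286 untreated. SCEI was thus highest in both wild-type libraries of experiment 1 in either medium. The values of SCEI lay below those of each other frame in all 8 libraries.

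**Figure D4:**
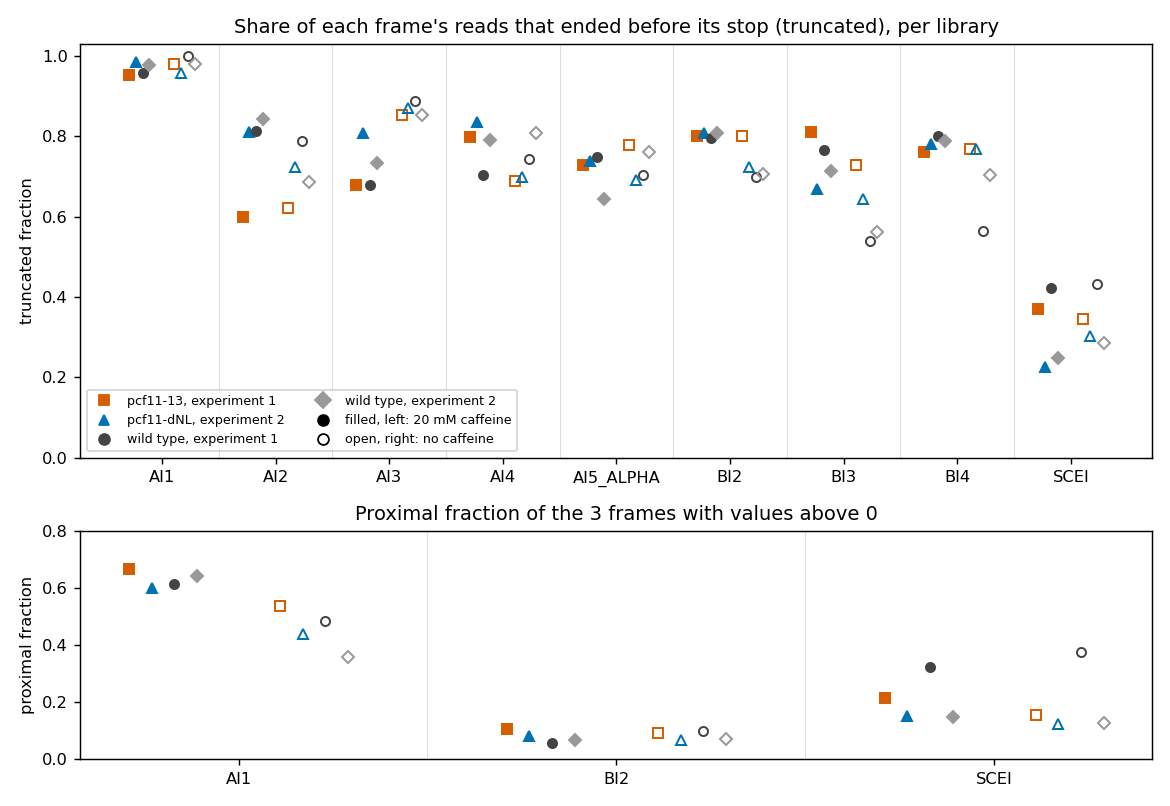
Truncated fraction (upper panel) and proximal fraction (lower panel) of the frames in every library, caffeine left (filled) and untreated right (open), strains by colour and shape. AI1 lies at the top near 1, SCEI below all others at 0.226 to 0.431, and the proximal fraction of AI1 is higher in every caffeine library than in any untreated one.

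Caffeine was tested on the truncated fraction with limma where each library had 20 counts or more, which 5 of the 9 frames passed: AI1, BI2, BI3, BI4 and SCEI. None of them was called with caffeine, where 10.5% of all genes were. BI3, the maturase frame of the third COB intron, had 0.811 in pcf11-13, 0.670 in pcf11-dNL and 0.765 and 0.713 in wild type with caffeine, against 0.729, 0.644, 0.540 and 0.561 untreated. It was higher with caffeine in 4 of 4 pairs, by 0.121 ± 0.0343 on average (adjusted p 0.0855), and the groups overlapped. BI2 differed by 0.0699 ± 0.0191 (adjusted p 0.0803) and, without either pcf11-13 library, by 0.0934. Either refit leaves the whole pcf11-13 strain out of the caffeine effect.

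BI4 differed by 0.0808, SCEI by -0.0245 and AI1 by -0.0117, each with an adjusted p of 0.316 or more. The host genes went apart: COX1 differed by -0.184 with adjusted p 0.0575 and COB by 0.0796 with adjusted p 0.0648. Neither passed, although their caffeine and untreated libraries did not overlap. Of all genes tested, 18.6% had all caffeine libraries lower and 3.91% had all of them higher.

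AI3 stayed outside that test because untreated wild type of experiment 1 had 11.1 counts. Its truncated fraction was 0.678, 0.809, 0.678 and 0.735 with caffeine (pcf11-13, pcf11-dNL, wild type of experiments 1 and 2) and 0.852, 0.870, 0.887 and 0.854 untreated, so the groups did not overlap. At a minimum of 10 counts, 18.5% of all genes had all caffeine libraries lower in this way. With that minimum all 9 frames were tested and AI3 was the 1 called, where 10% of all genes were, at -0.141 ± 0.0257 with adjusted p 0.0404. The call was lost with the experiment as a block (adjusted p 0.0602) and without any 1 of the 8 libraries, where the difference ran from -0.167 to -0.125 with adjusted p 0.0715 to 0.118. Behind the untreated values stand 1.25 to 3.67 reads past the stop per library, estimated as counts times the fraction not truncated, against 6.89 to 13.9 with caffeine.

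In the mutants, 0 of the 5 frames tested were called for the truncated fraction in pcf11-13 (0.213% of all genes) or in pcf11-dNL (0% of all genes). At an unadjusted p under 0.05, BI3 alone of the 5 passed in pcf11-13, where it was 0.125 ± 0.0420 above wild type (p 0.0312, adjusted p 0.285), and none passed in pcf11-dNL. At that threshold 14.5% of all genes passed in pcf11-13 and 4.26% in pcf11-dNL.

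The authors also give a fraction of ends near the start of a gene, named ProPrx, whose bounds the sources used here do not give. It was above 0 in AI1, BI2 and SCEI and listed at 0 in every library for the other 6 frames. The host genes COX1 and COB were also listed at 0 in every library, although AI1 starts with COX1 and BI2 with COB. Whether the values of AI1 and BI2 describe these frames or the start they share with other features cannot be told from the tables. AI1 had 0.669 in pcf11-13, 0.600 in pcf11-dNL and 0.613 and 0.642 in wild type with caffeine, against 0.537, 0.438, 0.485 and 0.359 untreated. Every caffeine library lay above every untreated one, which held for 4.72% of all genes tested. Genes at 0 in every library, such as COX1 and COB, are among those tested but could not show this. The nearest values of AI1 were 0.600 with caffeine (95% Wilson interval 0.530 to 0.668) and 0.537 untreated (0.445 to 0.619).

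In limma the AI1 difference was 0.176 ± 0.0335 with p 0.00431 and adjusted p 0.132. None of the 5 frames was called with caffeine (0.0387% of all genes), in pcf11-13 (0.174%) or in pcf11-dNL (0%), a test added after the data were seen. BI3 and BI4 could not be called in it, since their values were 0 in every library, so it bears on AI1, BI2 and SCEI only. BI2 stayed between 0.0552 and 0.104 with caffeine and 0.0682 and 0.0997 untreated. SCEI had 0.323 and 0.377 in wild type of experiment 1 with and without caffeine, against 0.147 to 0.212 in the other caffeine and 0.121 to 0.153 in the other untreated libraries. The 2 high values are those of the libraries with high URA3, and a link between them was not tested.

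The mean distance of reads past the stop, which the authors call 3′ UTR length, was set against the bases left in each intron. In SCEI the reads lay on average 496 to 631 nt past the stop, in all 8 libraries beyond the 138 bases left in the intron and short of the 718 bases to the annotated end of 21S rRNA. In AI2 the mean was 120 to 190 nt, against 123 bases left, and it passed the intron end in 7 of 8 libraries. AI4 had 46.9 to 88.2 nt with 59 bases left, and passed the intron end in 4 of 8. Behind these means stand an estimated 4.17 to 11.3 reads past the stop per library in AI2 and 4.91 to 21.5 in AI4.

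In 5 frames the mean lay inside the intron in all libraries. AI3 had 29.3 to 214 nt of 511 bases, AI5_ALPHA 173 to 219 nt of 444, BI2 156 to 191 nt of 561, BI3 63.4 to 120 nt of 575 and BI4 28.6 to 88.9 nt of 256. AI1 had 11.2 to 202 nt with 112 bases left and passed the intron end in 5 of 8 libraries, but with at most 7.50 reads past the stop in any of them.

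**Figure D5:**
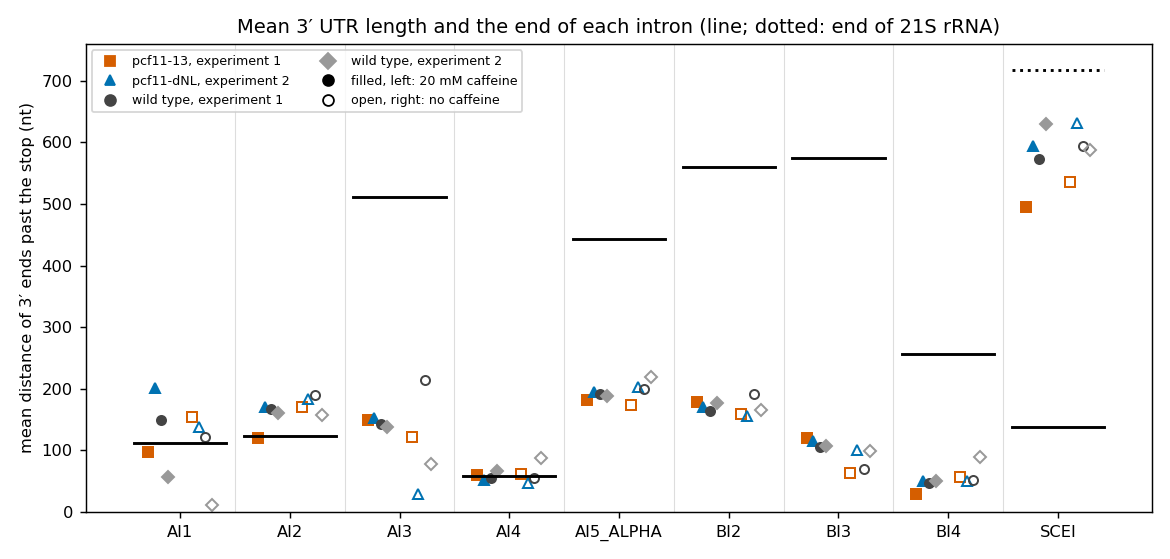
Mean distance of 3′ ends past the stop (nt) for each frame in every library, caffeine left (filled) and untreated right (open), with a black line at the number of bases from the stop to the end of the intron and a dotted line at the end of 21S rRNA. SCEI lies at 496 to 631 nt, between its intron end and the 21S end, and 5 frames lie below their line in all libraries.

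With caffeine, 0 of the 5 frames tested changed in length by limma, where 1.37% of all genes did. BI3 was longer in each caffeine library, at 120, 115.04, 104.9 and 107 nt (pcf11-13, pcf11-dNL, wild type of experiments 1 and 2), against 63.4, 101, 70.4 and 99.6 nt untreated, a difference of 28.2 ± 9.97 nt with adjusted p 0.154. BI4 was shorter in each, at 28.6, 50.1, 46.3 and 50.1 nt against 57.3, 50.8, 52.0 and 88.9 nt untreated, a difference of -18.5 ± 9.60 nt with adjusted p 0.269. All caffeine libraries were higher in 4.61% of all genes and lower in 11.2%. Of the host genes, COX1 differed by -49.5 ± 5.73 nt (adjusted p 0.0340) and COB by -17.6 ± 38.5 nt, which did not pass. The COX1 call was lost with the experiment as a block (adjusted p 0.0581) and without any 1 of the wild-type or pcf11-dNL libraries, where it differed by -54.3 to -45.0 nt with adjusted p 0.0621 to 0.145.

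In the mutants, 0 of the 5 frames were called for length in pcf11-13 (0.678% of all genes) or pcf11-dNL (0%). SCEI had the lowest p in pcf11-13, with 496 nt with caffeine and 536 nt untreated, against 573 and 630.5 nt in caffeine-treated and 594 and 587 nt in untreated wild type. The difference was -80.3 ± 20.8 nt (p 0.0114, adjusted p 0.131), and both pcf11-13 libraries lay below all others.

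Nuclear genes that act on these introns and transcripts were counted in 3 lists. Of 10 genes for splicing of mitochondrial introns, 1 rose and 5 fell with caffeine in wild type (edgeR), where 17.1% of all genes rose and 14.5% fell, with a median log2 change of -0.73 against 0.02 for all genes. MRS1, a splicing factor of the BI3 intron, fell by 1.48 ± 0.21. CCM1, a pentatricopeptide protein needed for the BI4 intron, fell by 1.35 ± 0.23. MSS116, an RNA helicase of many of these introns, fell by 1.24 ± 0.23, and MRS2, a magnesium channel, fell by 1.02 ± 0.26. QRI5 (COX24) fell by 0.79 ± 0.22 and MSS18, needed for the AI5_BETA intron, rose by 1.05 ± 0.25. CBP2, NAM2, MNE1 and PET54 did not pass, with -0.56, -0.67, -0.01 and 0.62.

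Of 7 genes for mitochondrial transcription and RNA turnover, 0 rose and 2 fell in wild type, a share close to the 31.6% of all genes called in either direction. All 7 had a log2 change below 0, with a median of -0.66 against 0.02 for all genes. RMD9, which binds the dodecamer and protects mRNA ends, fell by 1.24 ± 0.23 and the RNA polymerase gene RPO41 fell by 0.82 ± 0.24. Of 8 genes for the stability and translation of COX1 and COB mRNA, 1 rose and 4 fell, with a median log2 change of -0.74. PET309, needed for COX1 mRNA stability and translation, fell by 1.42 ± 0.23, and MAM33, which acts in COX1 translation, fell by 1.41 ± 0.29. CBP3 fell by 0.97 ± 0.21 and its partner in COB translation, CBP6, fell by 0.93 ± 0.25, while CBS1, a COB translation activator, rose by 0.72 ± 0.21.

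The wild-type calls of MRS1, CCM1, MSS116, RMD9 and PET309 held without each of the 4 wild-type libraries in turn. They also held without each mutant library, but that tests little, since the spread in this fit comes from wild type alone. CBS1 was lost without any 1 of the 4 wild-type libraries. QRI5 and RPO41 were lost without each of them except the untreated library of experiment 1, and CBP6 without each except the caffeine library of experiment 1. MSS18 was lost without untreated wild type of experiment 1 or caffeine-treated wild type of experiment 2, CBP3 without the second of these, and MRS2 and MAM33 without untreated wild type of experiment 2. The adjusted p of these lost calls ran from 0.0518 for MSS18 to 0.210 for QRI5.

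Over all strains 2 rose and 5 fell of the splicing list, 0 and 3 of the turnover list and 1 and 6 of the stability and translation list, where 19.9% of all genes rose and 18% fell. PET54, a splicing and translation factor that rose by 0.45 on the log2 scale, lost its call with the experiment as a block (adjusted p 0.0674). PET54, QRI5, MRS2, MSS18, RPO41, SUV3, CBS1 and CBS2 each lost the call over all strains without 1 or more of the libraries, with adjusted p from 0.0512 for RPO41 to 0.137 for CBS2. For MSS18 that was caffeine-treated pcf11-dNL, for CBS1 any 1 of the wild-type or pcf11-13 libraries, and for the other 6 wild-type or pcf11-dNL libraries. In both mutants, and for the difference of the caffeine response, 0 genes of the 3 lists were called. CBP1, which stabilises COB mRNA, came nearest, 1.89 ± 0.50 above wild type in pcf11-13 (adjusted p 0.0812 in edgeR, 0.00482 in DESeq2). That value is taken over both media, and the log2 caffeine response of CBP1 was 2.70 higher in pcf11-13 than in wild type. At an unadjusted p under 0.05 edgeR gave 0, 1 and 2 genes of the lists in pcf11-13 and 1, 0 and 0 in pcf11-dNL. Of the 5849 genes tested, 1231 passed that threshold in pcf11-13 and 163 in pcf11-dNL.

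Among the 5457 nuclear genes that averaged 50 counts or more, the summed level of the 9 frames over the 8 libraries was most like VMA6 (Pearson r 0.978), CPR1 (0.948), CHD1 (0.944), TCB1 (0.940) and ERV46 (0.930) on the log2 CPM scale. These correlations are a description over libraries that share depth and medium, picked as the highest of many. Among the frames themselves AI2 ran most like COX1 (r 0.949), followed by BI4 (0.877) and AI3 (0.866), while AI1 had -0.30.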

How the data were processed

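The authors deposited expected counts per gene, estimated from Helicos direct RNA reads, their mean 3′ UTR length as a score in nt, and the truncated and proximal (ProPrx) reads as a fraction per gene and library, with counts pooled over libraries, per the file headers. Per the submitters' processing notes reads were placed on sacCer3. Aligner, counting rules, strand and multi-mapping are not given in sources used here. Expected counts, rounded to whole numbers, went into edgeR 4.0.16 (TMM, filterByExpr, quasi-likelihood, Benjamini-Hochberg, 5849 genes). Wild-type caffeine effects and differences between caffeine effects used 6 group means, whose spread comes from wild type alone, and other effects genotype plus medium. The other tables were tested with limma 3.58.1 at 20 counts or more in every library. Wild-type libraries of 1 medium are cultures of experiments 1 and 2. The p-values of the group-mean fits measure only the spread between them, possibly a technical one. In the fits of genotype plus medium, which the limma tests also used, the spread also holds strain-specific caffeine responses and experiment differences. Each mutant had 1 library per medium. The labels' experiment numbers pair the samples, and deviations of the wild-type libraries of 1 number correlated with r 0.194. All 9 frames, their hosts, called genes of the 3 lists and at most 4 others of a list are named. Members and lists were chosen with earlier results of these data known. Sequences are from RefSeq (R64, the same assembly), matched for 5919 of 5933 identifiers. DESeq2 1.42.0, other scaling and filters, the experiment block and each library left out were alternatives.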

Additional observations from a re-analysis of the deposited data

How the results depend on the processing

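The count of frames called was 0 in 159 of 164 alternatives and 1 in the other 5. With the experiment number as a replicate block, which pairs the libraries, 0 frames were called in each test. With caffeine over all strains, leaving out 1 library gave 0 to 1 frames by edgeR (AI2, without either pcf11-13 library) and 0 to 1 by the truncated fraction (BI2, likewise), and a minimum of 10 counts gave 1 by the truncated fraction (AI3, lost there with the block or without any 1 library). Without either pcf11-13 library, the other has its own term in the fit and no longer bears on the caffeine effect. Both refits thus leave out the whole strain and are not separate tests. A minimum of 50 counts left no frame to test. The log2 difference of the COX1 frame ratio was 0.42 over all other mitochondrial features, reversed to -0.064 with COX1 left out of these (an alternative chosen after seeing the data), and was 1.19 to 2.03 with 1 library left out, lowest without untreated pcf11-dNL and highest without untreated pcf11-13. That of the COB frames, -0.14 over COB, reversed to 0.57 over all other mitochondrial features and to 0.089 with COX1 left out of these, and the cause of the change in sign was not tested. It was -0.21 to -0.06 with 1 library left out. COX1 in pcf11-13 against wild type was -0.98 with adjusted p 0.260, and -2.19 with adjusted p 0.0202 without caffeine-treated pcf11-13. Of 666 refits of single frames, 40 changed sign without a call in the log2 level, and 36 of 459 did so in the poly(A) measures. The 459 include refits of the proximal fraction of BI3 and BI4, which was 0 in every library and could not change. Depth limits all of these values, since no frame had 50 counts in every library.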
